A study of Homo sapiens with 6 samples.

Results

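IER3 and 9 genes of the NF-κB response, namely the chemokine genes CXCL8, CXCL1, CXCL2 and CXCL3, the NF-κB subunit genes NFKB1, NFKB2 and RELB, and the inhibitor genes NFKBIA and TNFAIP3, were followed in a CAPG knockdown experiment. They were taken from the expression table by gene symbol. All 10 were found, each on 1 of its 60643 rows. The cells were HCT116, an established human colorectal cancer line that the labels assign to the rectum, and they carried an inducible short hairpin RNA (shRNA) against CAPG, a protein that caps actin filaments. In 1 group the shRNA was induced for 3 days with doxycycline at 100 ng/µl, a unit given here as labelled (3 libraries, labelled as CAPG knockdown). The comparison group was left untreated (3 libraries). The labels call its genotype wild type, although its titles name the same shRNA. No doxycycline library lacking the shRNA was analysed here, so effects of the drug and of the hairpin cannot be told apart. All libraries are labelled with the same single hairpin, so its effects on other genes and the loss of CAPG cannot be told apart either. The labels do not say whether the 3 replicates of a group were separate cultures, so the spread behind each p-value may be technical.

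NF-κB is a family of dimeric transcription factors that are held in the cytoplasm by IκB proteins. Signals from receptors of tumour necrosis factor, interleukin 1 or bacterial products activate the IκB kinase complex, IκB is degraded, and the freed dimers enter the nucleus and switch on target genes. Among these targets are chemokines that attract neutrophils, survival genes, and the pathway's own inhibitors, which end the response. In the gut epithelium and in colorectal cancer cells the pathway is known for linking inflammation to cell survival.

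The DNA upstream of CXCL8, CXCL1, CXCL2 and NFKBIA is shown because it carries the letters by which NF-κB targets are usually recognised. That of CXCL3 is not printed. Each line holds the 100 bases before the RefSeq start of transcription (build GRCh38.p14), read 5′ to 3′ on the strand of the gene. Capitals mark the only match to GGAATTTCC in that stretch, on either strand. CXCL8 lies at chr4:73740469-73740568 (+), CXCL1 at chr4:73869293-73869392 (+), CXCL2 at chr4:74099196-74099295 (-) and NFKBIA at chr14:35404750-35404849 (-).
CXCL8: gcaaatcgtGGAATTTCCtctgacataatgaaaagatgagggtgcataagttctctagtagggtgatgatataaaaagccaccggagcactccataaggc
CXCL1: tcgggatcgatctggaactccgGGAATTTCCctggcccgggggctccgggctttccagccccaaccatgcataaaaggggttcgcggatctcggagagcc
CXCL2: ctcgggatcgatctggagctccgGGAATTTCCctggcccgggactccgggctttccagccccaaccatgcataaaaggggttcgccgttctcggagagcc
NFKBIA: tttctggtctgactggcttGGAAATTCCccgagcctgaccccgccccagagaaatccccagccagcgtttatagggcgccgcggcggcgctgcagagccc

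RefSeq upstream sequence was matched for 8 of the 10 genes, which left IER3 and RELB unmatched. In a search of the 250 bases before each start, GGAATTTCC was found for 6 of them (CXCL8, CXCL1, CXCL2, CXCL3, NFKB1 and NFKBIA). In NFKBIA it stood on the opposite strand, as GGAAATTCC. Of all 27305 genes searched in the same way, 0.502% held it before at least 1 start (0.413% of 35116 starts). The broader kappaB consensus, which overlaps GGAATTTCC, was found for 7 of the 8 (all but CXCL8). It was found for 6.28% of all genes and at 5.21% of all starts. A match of letters describes the window and does not show that a factor bound there. The 10 genes were chosen as genes of the NF-κB response, so their counts beside these shares are a description only. The matches of CXCL1, CXCL2 and CXCL3 are also not independent of each other. CXCL1, CXCL2 and CXCL3 are close relatives: the 100 upstream bases of CXCL1 and CXCL2 were 94.1% identical, and their coding sequences of 324 bases were 93.5% identical. The coding sequence of CXCL3 matched that of CXCL1 at 90.7% and that of CXCL2 at 94.4% of bases. Reads can therefore be assigned to the wrong gene of this trio, and their single values are uncertain. CXCL8, at 51.7% coding identity with CXCL1, stands apart.

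Values are FPKM (fragments scaled to transcript length and library size), which allow levels to be compared between genes per length. Depth was estimated at 14800000 to 18700000 fragments per library, and 3 fragments in a transcript of 1 kilobase correspond to 0.161 to 0.203 FPKM. The targeted gene, CAPG, fell from 57.2 ± 3.75 FPKM (SD, n = 3) to 8.73 ± 1.08, which left 15.3% (log2 change -2.59, adjusted p = 7.24e-06 in limma). Replicate 3 with doxycycline had the largest sum of FPKM, 586911 against 521832 to 536037 in the other 5 libraries. Of 10 epithelial markers, 6 were tested, and EPCAM rose (190 to 241 FPKM, adjusted p = 0.0401, above 0.05 when any library other than replicate 3 with doxycycline was left out). VIL1, LGALS4, CEACAM5 and CEACAM6 stayed below 1 FPKM. The summed level of 12 leukocyte markers was 5.67 to 5.72 FPKM without and 3.23 to 3.81 with doxycycline, with CD3E, CD3D, MS4A1 and FCGR3A at 0, and CD68, the only 1 of them tested, fell from 3.94 to 2.01 FPKM (adjusted p = 0.0167, above 0.05 without replicate 2 of either group, at 0.0733 and 0.0512). Fibroblast markers (10 genes, COL1A2 and DCN at 0) summed to 12.4 to 17.6 and 12 to 13.9 FPKM, and endothelial markers (7 genes) to 0.318 to 0.497 and 0.19 to 0.621. The part of these markers in the changes described next was not tested.

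IER3, an immediate early gene of the NF-κB response that encodes a protein regulating cell survival, was the most abundant of the 10 genes. Its log2(FPKM + 1) change was the largest of those tested, but CXCL8 changed more with a pseudocount of 0.1 (0.96 against 0.87) and in the ratio of means. Its level in replicates 1, 2 and 3 was 173, 157 and 173 FPKM without doxycycline and 292, 276 and 358 FPKM with it. The lowest library with doxycycline lay well above the highest library without, and replicate 3 with doxycycline was the highest of the 6. The mean rose 1.84-fold, from 168 ± 9.26 to 309 ± 43.5 FPKM (SD, n = 3). On the log2(FPKM + 1) scale the change was 0.87 (SE 0.11, 95% interval 0.64 to 1.11) with an adjusted p of 0.00304 in limma. These are bulk libraries, in which more cells that express a gene and more RNA per cell cannot be told apart. The rise did not rest on replicate 3 with doxycycline: without that library the log2 change was 0.76 and the adjusted p 0.00408. IER3 is at chr6:30743199-30744548 (GRCh38, - strand), and by its mean level it ranked 316 among the 60643 rows. Among the 534 genes that were higher with doxycycline its change was the 21st largest, and the share of tested genes called higher was 3.69%. An exact permutation test of 3 against 3 libraries (two-sided) gave p = 0.1, the smallest value this design allows.

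IER3-AS1, a noncoding gene on the strand opposite IER3, overlaps it. It was below the level of a single fragment in the 3 libraries without doxycycline and at 0.272, 0.27 and 0.581 FPKM with it. The sources do not state whether counting used the strand, so reads of this pair cannot be told apart, although the antisense values are far below those of IER3. HCG20, another overlapping noncoding gene, averaged 0.157 FPKM.

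**Figure D1:**
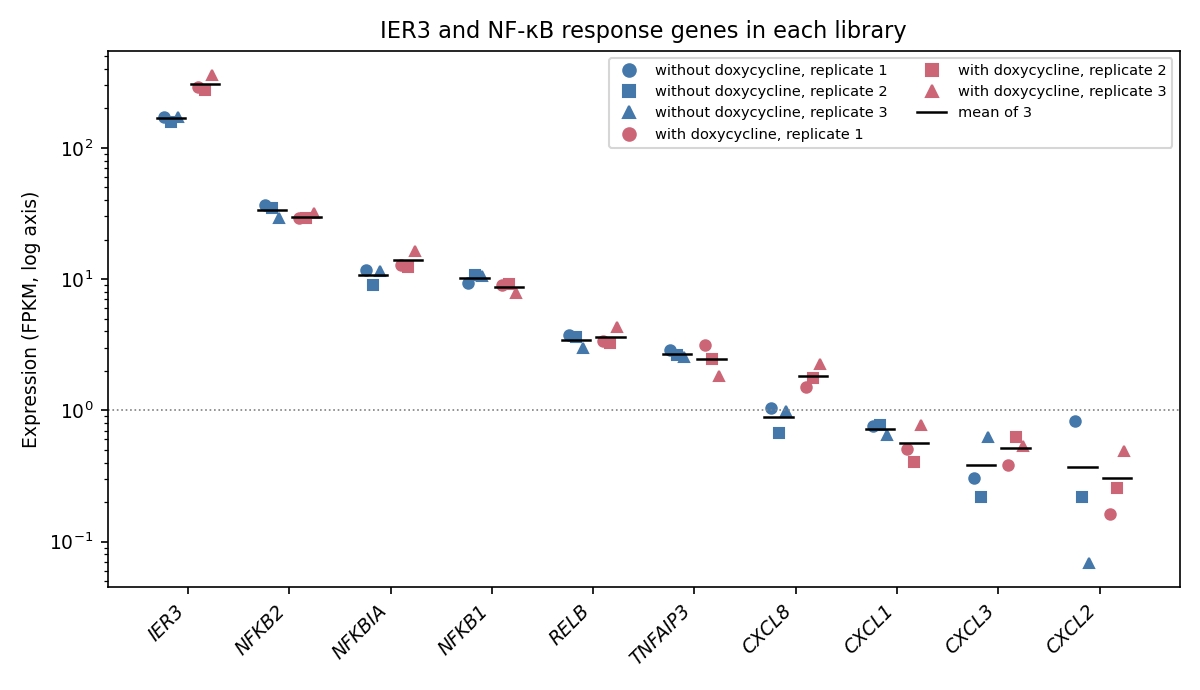
FPKM (log axis) of each of the 10 genes in the 6 libraries, as 1 point per library (blue without, red with doxycycline), with a black bar at each group mean and a dotted line at 1 FPKM. The 3 points of IER3 with doxycycline lie between 276 and 358 FPKM, above the 157 to 173 FPKM without, while CXCL1, CXCL2 and CXCL3 lie below 1 FPKM in every library.

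CXCL8, CXCL1, CXCL2 and CXCL3 encode secreted chemokines that attract neutrophils through the receptor CXCR2. Of these genes CXCL8 (interleukin 8) rose, from a low level, and the other 3 stayed below 1 FPKM in all 6 libraries. CXCL8 read 1.03, 0.673 and 0.981 FPKM in replicates 1, 2 and 3 without doxycycline and 1.5, 1.76 and 2.24 FPKM with it. Every library with doxycycline was above every library without, and replicate 3 with doxycycline was again the highest. The mean rose 2.04-fold, from 0.896 ± 0.195 to 1.83 ± 0.376 FPKM (SD, n = 3). The log2(FPKM + 1) change was 0.58 (SE 0.15, 95% interval 0.24 to 0.91), with an adjusted p of 0.0439 in limma. That call was near the threshold of 0.05: it was lost whichever library was left out, with adjusted p between 0.0517 (without replicate 1 with doxycycline) and 0.148 (without replicate 2 of the untreated cells). CXCL8 also entered the test through the group in which it was high, since all 3 libraries with doxycycline reached 1 FPKM and 1 of the others did, and with every detected gene tested its adjusted p was 0.131. The values correspond to roughly 26 to 95 fragments per library. The gene is at chr4:73740541-73743716 (GRCh38, + strand).

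CXCL1 had the other direction in its means. It read 0.760, 0.770 and 0.645 FPKM without doxycycline and 0.508, 0.405 and 0.775 FPKM with it, so that the highest library of all was replicate 3 with doxycycline. The means of 0.725 ± 0.0692 and 0.563 ± 0.191 FPKM (SD, n = 3) overlapped in their libraries (exact permutation p = 0.4, two-sided). These values stand for about 10 to 19 fragments, and the gene is at chr4:73869393-73871308.

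CXCL2 was the most scattered of the 10 genes. Its libraries read 0.830, 0.22 and 0.069 FPKM without doxycycline and 0.163, 0.258 and 0.489 FPKM with it, on about 2 to 22 fragments each. The untreated libraries alone spanned more than all those with doxycycline, and the means of 0.373 ± 0.403 and 0.303 ± 0.168 FPKM (SD, n = 3) differed by less than that spread (exact permutation p = 0.9, two-sided). CXCL3 read 0.304, 0.22 and 0.628 FPKM without and 0.385, 0.622 and 0.531 FPKM with doxycycline. Its groups overlapped too, with means of 0.384 ± 0.216 and 0.513 ± 0.119 FPKM (SD, n = 3, exact permutation p = 0.5, two-sided). CXCL2 is at chr4:74097040-74099196 and CXCL3 at chr4:74036589-74038807, both on the - strand. No change of CXCL1, CXCL2 or CXCL3 was detected, although the exact test cannot go below p = 0.1 with 3 libraries per group. All 3 missed the minimum of 1 FPKM in 3 libraries for the test across genes. With every detected gene tested in limma, the log2 changes were -0.15 for CXCL1, -0.04 for CXCL2 and 0.14 for CXCL3. The adjusted p of that fit was 0.613, 0.965 and 0.656.

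Because reads can move between the trio, their sum is less exposed to misassignment than the single genes. CXCL1, CXCL2 and CXCL3 together came to 1.89, 1.21 and 1.34 FPKM without doxycycline and 1.06, 1.28 and 1.79 FPKM with it, which overlap. With CXCL8 added, the sums were 2.93, 1.88 and 2.32 FPKM without and 2.55, 3.05 and 4.03 FPKM with doxycycline, which overlap as well. All 4 chemokine genes together thus stayed far below IER3 alone. The receptor genes CXCR1 and CXCR2 were below 0.5 FPKM in every library, and the scavenger receptor gene ACKR1 was listed at 0.

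NFKB1, NFKB2 and RELB encode DNA-binding subunits: NFKB1 and NFKB2 give rise to precursors that are cut to the subunits p50 and p52, and RELB pairs mainly with the products of NFKB2 in the noncanonical branch. None of the 3 passed the test. NFKB2 was the most abundant, at 36.4, 34.8 and 28.97 FPKM in replicates 1, 2 and 3 without doxycycline and 29.003, 29.1 and 31.8 FPKM with it. Its groups overlapped, and the log2 change was -0.15 (SE 0.10, 95% interval -0.37 to 0.08, adjusted p = 0.376 in limma). NFKB1 read 9.37, 10.7 and 10.5 FPKM without and 9.09, 9.18 and 7.78 FPKM with doxycycline. Its groups did not overlap, each library with doxycycline being lower, and the means were 10.2 ± 0.701 and 8.68 ± 0.781 FPKM (SD, n = 3). The log2 change of NFKB1, -0.21 (SE 0.10, 95% interval -0.43 to 0.02), had an adjusted p of 0.217. RELB read 3.78, 3.63 and 2.97 FPKM without and 3.37, 3.24 and 4.33 FPKM with doxycycline, with replicate 3 at one end of each group. Its log2 change of 0.06 (SE 0.13, 95% interval -0.23 to 0.35, adjusted p = 0.814) turned negative without that library of either group. The genes are at chr10:102394110-102402524 (NFKB2), chr4:102501331-102617302 (NFKB1) and chr19:45001449-45038198 (RELB).

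NFKBIA encodes IκBα, the inhibitor that binds NF-κB dimers in the cytoplasm and is itself a rapid NF-κB target. It read 11.6, 9.08 and 11.4 FPKM without doxycycline and 12.7, 12.4 and 16.5 FPKM with it. The groups did not overlap, and replicate 3 with doxycycline stood above the rest. The means were 10.7 ± 1.42 and 13.9 ± 2.25 FPKM (SD, n = 3). The log2 change of 0.34 (SE 0.13, 95% interval 0.04 to 0.64) had an unadjusted p of 0.0289 and an adjusted p of 0.131 in limma, and the log2 change fell to 0.22 without replicate 3 with doxycycline. TNFAIP3 encodes A20, a ubiquitin-editing enzyme that shuts off signalling upstream of the IκB kinase. It read 2.89, 2.64 and 2.53 FPKM without and 3.12, 2.47 and 1.84 FPKM with doxycycline, so that the latter group held both the highest and the lowest library. The log2 change was -0.10 (SE 0.15, 95% interval -0.43 to 0.23, adjusted p = 0.703) and changed sign, to 0.04, without replicate 3 with doxycycline. The antisense gene WAKMAR2, which overlaps TNFAIP3, averaged 0.125 FPKM. NFKBIA is at chr14:35401513-35404749 and TNFAIP3 at chr6:137867214-137883312.

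**Figure D2:**
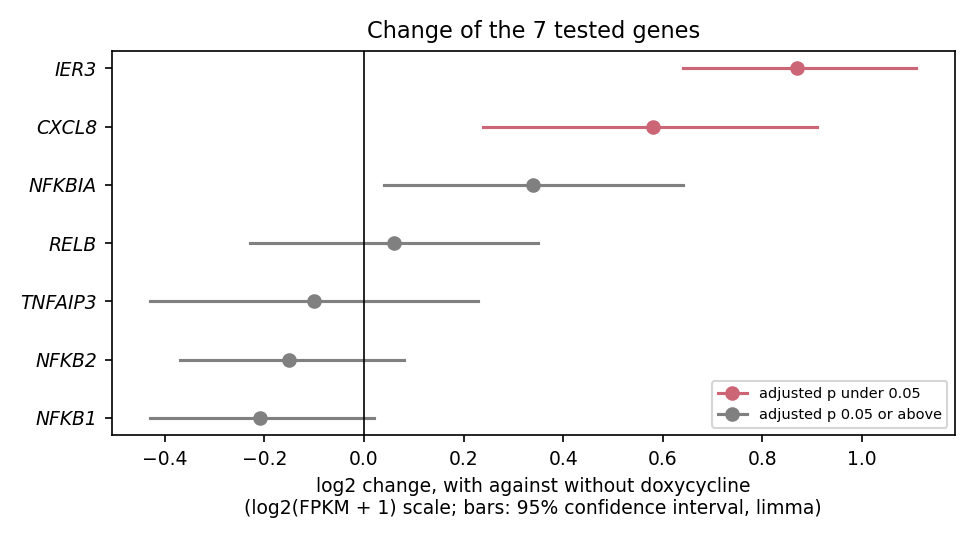
Log2 change with against without doxycycline, on the log2(FPKM + 1) scale, of the 7 tested genes, with bars for the 95% interval. IER3 (0.87) and CXCL8 (0.58), in red, have an adjusted p below 0.05, and the intervals of RELB, TNFAIP3, NFKB1 and NFKB2 include 0.

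Of the 10 genes, 7 could be tested, and 2 of these (IER3 and CXCL8) were called higher and 0 lower with doxycycline. CXCL8 passed the filter on low values through the group in which it was high, which favours a difference among the genes counted. The counts and the median over the 7 are therefore a description that supports nothing by itself. With every detected gene tested, IER3 alone was called (CXCL8 adjusted p = 0.131). In the same limma fit 8.46% of 14475 tested genes were called, with 4.77% called lower. At an unadjusted p below 0.05 the count was 3 of 7, NFKBIA being the addition, against 27.9% of all tested genes. Groups did not overlap for 4 of the 7 tested genes (IER3, CXCL8, NFKBIA and NFKB1), against 34.5% of all tested genes. The median log2 change of the 7 was 0.06, beside -0.0026 over all tested genes. Of the 10 genes, 5 (IER3, CXCL8, CXCL1, NFKBIA and RELB) had their highest value in replicate 3 with doxycycline, the library with the largest FPKM sum. Scaling every library to the same sum left the log2 change of IER3 at 0.82, with the same 2 genes called.

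The rest of the pathway, and genes beyond it, were described through 13 lists with 172 further genes, of which 121 were tested. In these, 8 genes were called higher and 4 lower, or 9.92% of those tested, beside 8.46% of all tested genes. The median log2 change was 0.09. The lists of immediate early, IER and mRNA decay genes reach beyond the pathway. They alone held IER2, JUN, JUNB, ATF3 and ZFP36 (higher) and SRF and ZFP36L1 (lower). The other lists held CXCL16, IER5 and EFNA1 (higher) and TAB3 and UBE2V1 (lower). Over all tested genes 3.69% were called higher, 4.77% lower and 27.9% had an unadjusted p below 0.05, and the counts of each list are to be read against these shares. The remaining subunit genes were not called: RELA, the main activating subunit, had means of 26.1 and 24.4 FPKM (adjusted p = 0.728), and REL had 2.39 and 1.80 FPKM (adjusted p = 0.345), with 0.895 FPKM in replicate 3 with doxycycline. Of 5 further IκB genes 0 were called, with 2 at an unadjusted p below 0.05. NFKBIB was the most abundant of them, at 15.3 ± 1.51 and 19.1 ± 1.04 FPKM (SD, n = 3, adjusted p = 0.0798 in limma), and NFKBIE came next at 5.67 and 6.15 FPKM (adjusted p = 0.57). Of 14 tested genes of negative feedback and deubiquitination 0 were called, with 7 at an unadjusted p below 0.05 (27.9% of all tested genes), 5 of them higher. The most abundant of that list were TAX1BP1, which helps A20 to act, and RNF11, another part of the A20 complex, both with an adjusted p of 0.105 and in opposite directions (log2 change 0.21 and -0.24).

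Among 11 genes of the IκB kinase complex and the noncanonical kinase, TAB3, an adaptor of the kinase TAK1, was lower. TAB3 read 9.33, 8.69 and 8.67 FPKM without doxycycline and 6.54, 6.06 and 4.88 FPKM with it. Its log2 change of -0.54 had an adjusted p of 0.0239, which rose above 0.05 when replicate 1, 2 or 3 of the untreated cells or replicate 2 with doxycycline was left out (0.0521 to 0.0844). The kinase genes themselves were not called: IKBKB had means of 8.51 and 6.80 FPKM (adjusted p = 0.105), CHUK 26.3 and 26.7 FPKM (0.89) and the regulatory subunit gene IKBKG 4.44 and 5.17 FPKM (0.365). Of 26 tested adaptor and ubiquitin ligase genes, UBE2V1, a cofactor for the ubiquitin chains that activate TAK1, was lower. UBE2V1 fell from 79.5 ± 3.76 to 53.1 ± 0.592 FPKM (SD, n = 3, log2 change -0.57, adjusted p = 0.00425) and kept its call whichever library was left out. It shares exons with a readthrough transcript of the neighbouring gene and has related copies, so its values can include reads of these.

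Ligands and receptors that start the signal gave 0 calls. Of 15 ligand genes 12 stayed below 1 FPKM in every library, including TNF and IL1B, whose libraries all read below 0.05 FPKM, and CD40LG was listed at 0. The most abundant ligand gene was IL18, at 26.5 ± 1.90 and 31.0 ± 0.876 FPKM (SD, n = 3, log2 change 0.22, adjusted p = 0.122 in limma), the only 1 of the 3 tested with an unadjusted p below 0.05. TNFSF12 came next, with overlapping groups and means of 3.51 and 4.68 FPKM (log2 change 0.34, adjusted p = 0.206 in limma). Of 21 receptor genes 12 were tested, with 4 at an unadjusted p below 0.05, all higher, a share near the 27.9% of all tested genes, and TLR4 was listed at 0. TNFRSF12A, the receptor of the ligand TWEAK, read 38.9, 37.9 and 35.0 FPKM without and 43.8, 45.1 and 56.5 FPKM with doxycycline. Its groups did not overlap, and its adjusted p of 0.0659 moved below 0.05 when the libraries were scaled to the same sum (0.0489) or only genes with a mean of at least 5 FPKM were tested (0.0481). The receptor gene of tumour necrosis factor, TNFRSF1A, had means of 32.2 and 36.2 FPKM (adjusted p = 0.201).

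Among other genes listed as targets of NF-κB, 4 cytokine and chemokine genes and 18 genes of other kinds were tested. Of these, 3 were called higher (CXCL16, IER5 and EFNA1) and 0 lower, beside 3.69% called higher over all tested genes. The lists were written with earlier results of these data known, so the count is a description only. Of 17 further cytokine and chemokine genes 13 stayed below 1 FPKM, among them CCL20, and CXCL5, CXCL6, CXCL10, CCL2 and CX3CL1 were listed at 0. CXCL16, which encodes a membrane-bound chemokine, was called higher (14.1 to 18.7 FPKM, log2 change 0.39, adjusted p = 0.0456). Of 18 tested target genes of other kinds, IER5 and EFNA1 were called higher and 0 lower. EFNA1, an ephrin ligand gene, went from 7.76 to 10.4 FPKM (log2 change 0.38, adjusted p = 0.048). The calls of CXCL16 and EFNA1 were lost whichever library was left out, with adjusted p of 0.0746 to 0.141 and 0.0695 to 0.138. ICAM1, an adhesion gene often used as an NF-κB readout, read 6.08, 5.32 and 4.72 FPKM without and 7.16, 6.49 and 7.52 FPKM with doxycycline. Its groups did not overlap, but its log2 change of 0.34 had an adjusted p of 0.0875. The mitochondrial superoxide dismutase gene SOD2 (47.9 and 51.0 FPKM, adjusted p = 0.518) and the apoptosis inhibitor gene BIRC3 (1.91 and 2.10 FPKM, adjusted p = 0.701) had overlapping groups.

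**Figure D3:**
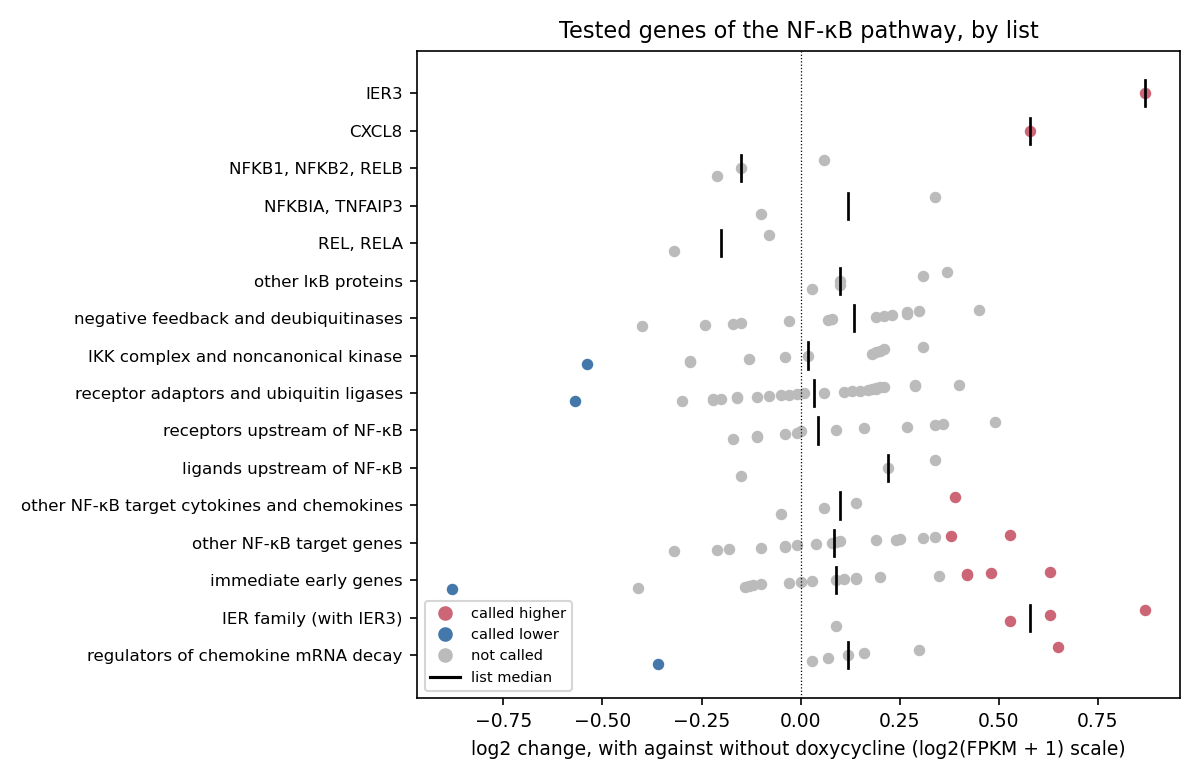
Log2 change with against without doxycycline (log2(FPKM + 1) scale) of the tested genes among the 10 (top 4 rows) and in the further lists. There is 1 point per gene and 1 row per list, with a black bar at the list median. The lists include immediate early, IER and mRNA decay genes, which reach beyond the pathway. Red points are genes with an adjusted p below 0.05 and a rise, blue points those with a fall, and most points of every signalling list are grey (not past the threshold).

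IER3 shares its name with other immediate early response genes, which are transcribed within minutes of a stimulus, and these were compared with it although they belong to different protein families. Of the 4 (IER2, IER3, IER5 and IER5L), IER2 and IER5 were called higher besides IER3 itself, where 3.69% of all tested genes were. The list holds IER3 and was written with earlier results of these data known, so this count is a description only. IER5 is also counted among the target genes above, and IER2 among the immediate early genes below. IER2 read 57.7, 51.8 and 48.1 FPKM in replicates 1, 2 and 3 without doxycycline and 75.8, 78.3 and 92.3 FPKM with it, and IER5 read 21.4, 20.1 and 20.7 against 29.6, 28.3 and 33.4 FPKM. Neither gene's groups overlapped. The log2 change was 0.63 for IER2 (SE 0.10, adjusted p = 0.00957 in limma) and 0.53 for IER5 (SE 0.09, adjusted p = 0.0113). IER2 kept its call whichever library was left out, and IER5 lost it without replicate 2 of the untreated cells (adjusted p = 0.0593). Both lost it when no filter on low values was used (adjusted p = 0.0697 for IER2 and 0.0601 for IER5) and with the replicate number as a block (0.0569 and 0.0525). IER5L, described after its values were seen, had overlapping groups with means of 14.3 and 15.3 FPKM (adjusted p = 0.617).

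**Figure D4:**
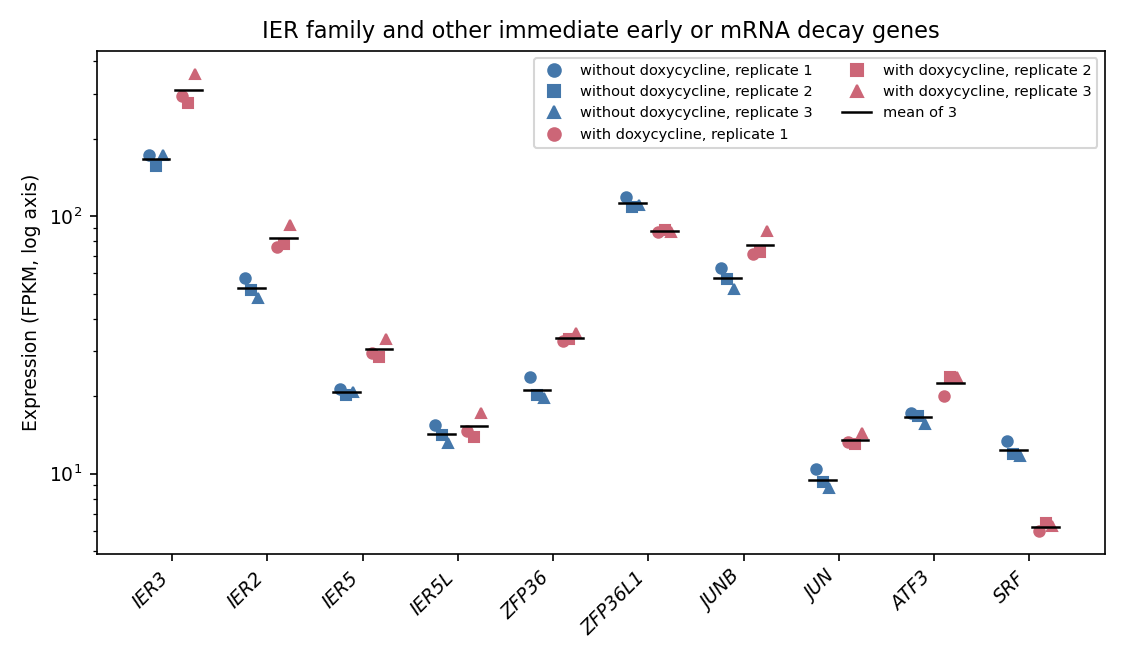
FPKM (log axis) of 4 IER genes, 2 mRNA decay genes (ZFP36 and ZFP36L1) and 4 transcription factor genes in the 6 libraries, as 1 point per library (blue without, red with doxycycline) and a bar for each group mean. All but IER5L, with means of 14.3 and 15.3 FPKM, are separated by group, and ZFP36L1 and SRF are lower with doxycycline. Apart from IER3 and IER5L, the genes are shown because they were called, so their separation is no further result. Groups did not overlap for 34.5% of all tested genes. Immediate early genes with overlapping groups, such as FOS and FOSL1, are not shown.

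In the wider list of 20 immediate early genes 19 were tested, of which 4 were called higher (IER2, JUN, JUNB and ATF3) and 1 lower (SRF). JUN and JUNB encode AP-1 subunits, and ATF3 a stress-induced transcription factor. JUN rose from 9.47 to 13.6 FPKM (log2 change 0.48, adjusted p = 0.0212), JUNB from 57.5 to 77.3 FPKM (0.42, adjusted p = 0.043) and ATF3 from 16.5 to 22.5 FPKM (0.42, adjusted p = 0.03). These calls were less firm than that of IER3. JUNB lost its call whichever library was left out (0.0534 to 0.129), ATF3 in 5 of 6 cases (all but replicate 1 with doxycycline, up to 0.102), and JUN without replicate 2 or 3 of the untreated cells or replicate 2 with doxycycline (up to 0.089). SRF encodes the serum response factor, which drives many immediate early genes and whose cofactors sense free actin. It read 13.4, 12.0 and 11.7 FPKM without doxycycline and 5.99, 6.43 and 6.27 FPKM with it. The groups were far apart, with a log2 change of -0.88 (SE 0.09, adjusted p = 0.00228) that kept its call whichever library was left out.

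Chemokine and immediate early mRNAs carry AU-rich elements through which they are degraded, so 7 genes that regulate this decay were read as well. ZFP36, which encodes the decay factor tristetraprolin, rose, and its relative ZFP36L1 fell. ZFP36 read 23.8, 20.1 and 19.7 FPKM without doxycycline and 32.7, 33.5 and 35.2 FPKM with it (log2 change 0.65, SE 0.09, adjusted p = 0.00617 in limma), and its call held whichever library was left out but not without the filter (adjusted p = 0.0516). ZFP36L1 went from 113 ± 5.56 to 87.4 ± 0.654 FPKM (SD, n = 3, log2 change -0.36, adjusted p = 0.0214). Its adjusted p passed 0.05 without replicate 1 or 2 of either group, reaching 0.0598 to 0.0864. The other 5 genes of the list were not called.

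The genes whose levels followed IER3 most closely were sought among 7147 genes with a mean of at least 10 FPKM, by Pearson's r of log2(FPKM + 1) over the 6 libraries. They were IER5 (r = 0.998), ATP6V1H (0.998), which encodes a subunit of the proton pump of acidic organelles, and PDCD10 (0.996), which encodes a scaffold of kinase complexes. ATP6V1H read 20.7 ± 0.847 and 28.99 ± 2.66 FPKM, and PDCD10 45.9 ± 1.2 and 60.5 ± 4.78 FPKM (SD, n = 3). Like IER3, all 3 were highest in replicate 3 with doxycycline. For CXCL8 the closest were RCE1 (0.996), DNAJC9 (0.995) and SRSF3 (0.99). RCE1 encodes a protease that trims prenylated proteins, DNAJC9 a histone chaperone and SRSF3 a splicing factor. The points share the same 6 libraries in 2 groups, and the coefficients are given as a description.

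**Figure D5:**
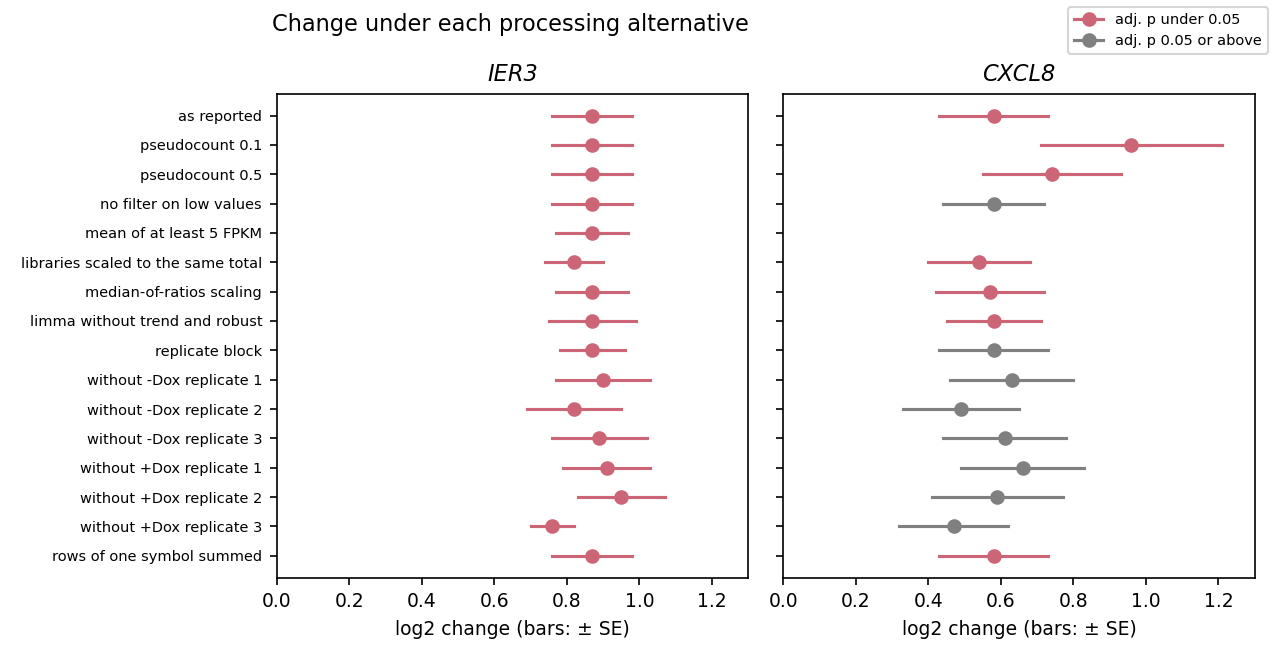
Log2 change (± SE) of IER3 and CXCL8 as reported and under the 15 other ways of processing, in red where the adjusted p is below 0.05. IER3 stays red throughout, at 0.76 to 0.95, whereas CXCL8 is grey whenever a library is left out and has no point where only genes with a mean of at least 5 FPKM were tested.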

How the data were processed

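RNA of 6 HCT116 libraries (total RNA by TRIzol, per the labels' protocols) was represented by the authors' deposited table of 1 value per gene and library. Its header names no unit. The deposited values were taken as FPKM because they were not whole and did not sum to a fixed total. The unit is thus inferred. BWA, Bowtie, STAR, Cufflinks, RSEM and kallisto are named in the submitters' processing notes without roles. Those notes name build hg19, but 39321 of 39331 identifiers found in GENCODE 29 had its GRCh38 locus, so GRCh38 is printed, counted from 1. FPKM is relative to the library, so a class of RNA that takes a larger share lowers the rest, and similar genes can exchange reads.

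The fit used 14475 genes, those reaching 1 FPKM in 3 or more libraries, on log2(FPKM + 1), which understates changes of low genes, with limma 3.58.1 in R 4.3.3 (trended, robust). P-values were two-sided and Benjamini-Hochberg adjusted over all tested genes, with a threshold of 0.05. "Called" means past that threshold. Exact permutation tests used scipy 1.17.1. The method was tested on simulated data, in which 200 genes were changed. Depth was estimated from the step of low values in 3991 genes with 1 exon and over 1000 bases, which only roughly resolved whole fragments. The limits cover counting error only.

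Members and lists were chosen with earlier results of these data known. Named were the 10 genes, CAPG, 12 set genes of the pathway, up to 5 called genes per list by smallest p (or the 2 most abundant where none passed, with marker lists abridged) and the 3 genes most like IER3 and CXCL8. IKBKG was moved from the IκB list to the kinase list after its values were seen. Alternatives covered the pseudocount, filter, scaling, variance model, replicate block, repeated symbols and leaving out each library.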

Additional observations from a re-analysis of the deposited data

How the results depend on the processing

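IER3 kept its direction and its call under all 15 alternatives (log2 change 0.76 to 0.95, adjusted p 9.26e-04 to 0.0417). CXCL8 kept its direction under the 14 that tested it and its call under 6 (adjusted p 0.0387 to 0.148). The 2 of the 10 genes called higher became 1 (IER3) without the filter, with a mean of at least 5 FPKM, with the replicate block, and with any library left out (1 to 1). The 8 genes of the further lists called higher became 0 without the filter and 5 in limma without trend and robust. They became 1 with the replicate block and 2 to 6 with a library left out. The 4 called lower became 2 without the filter, 2 with the replicate block and 2 to 4 with a library left out. Over all genes, 534 higher and 691 lower became 53 and 100 without the filter, 69 and 142 with the block, and 85 to 403 and 157 to 597 with a library left out, and 354 were higher without trend and robust. Without the filter more genes were tested, and a left-out library means fewer samples. CXCL8 was not among the genes tested with a mean of at least 5 FPKM. Otherwise the cause was not tested. Uncalled changes that reversed were those of RELB (-0.05 to 0.12 with a library left out), TNFAIP3 (-0.23 to 0.04), RELA (-0.20 to 0.06), COL1A1 (-0.20 to 0.03) and CHUK (-0.03 to 0.09, and -0.03 with libraries scaled to the same sum). Replicate numbers did not pair the libraries (correlations of same-numbered deviations -0.0433, 0.00936 and -0.0231, and no library was closest to its own number). Depth limits CXCL1, CXCL2 and CXCL3, which rest on about 2 to 26 fragments.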
